A study of Danio rerio with 20 samples.

Results

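The comparison described here set wild-type zebrafish heart muscle cell preparations taken 14 days after injury of the ventricle (14 dpi) against preparations from untouched wild-type hearts. Injury was removal of about 20% of the ventricle at its apex with scissors. Hearts came from fish aged 4 to 6 months, each library was made from polyadenylated RNA of cells isolated from 8 pooled ventricles, and each group had 2 libraries. The genes are those with a deposited value of 1 CPM (a gene's reads per M counted reads of the library) or more in at least 2 of the 4 libraries, which held for 10203 of the 14781 genes in the table. Another 3153 genes had reads in the 4 libraries but stayed below that limit. Of the 10203 genes, 9488 reached 1 CPM in all 4 libraries, 190 passed only through the 14 dpi libraries and 139 only through the untouched ones, so those had to differ between the groups and support nothing by themselves. Genes of that kind that are named below, 7 through 14 dpi and 3 through untouched hearts, are marked as such and given by their levels, with no test. The series has 20 libraries in 10 groups, adding wild-type hearts at 2, 5 and 7 dpi and the same 5 conditions in kita/kitb mutants, which carry mutations in both kit receptor genes. Sample titles and the time field give 14 days for the later group, while the source name of the same samples gives 4. The labels do not say whether libraries of a group came from separate isolations, so a p-value measures the spread between these libraries, which may be technical.

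The adult zebrafish replaces a resected ventricular apex with new muscle. In that process spared cardiomyocytes re-enter the cell cycle, lower their sarcomere and mitochondrial programmes and later restore them, while epicardium, fibroblasts, endocardium and immune cells build and then remodel a transient matrix of fibronectin, periostin and collagen. By the end of the second week proliferation is known to be past its peak, and the time point is used to look at the return towards an uninjured state.

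The 4 libraries held 16.1 to 22.1 M counted reads. Levels are given as scaled CPM, that is CPM divided by a library factor of 0.881 to 0.949 in these libraries, and no length correction was possible, so levels are not compared between genes. Where a gene had no read, its level could still have been 3 reads, which is 0.136 to 0.186 CPM in these libraries (counting error only). Differences are log2(scaled CPM + 1), 14 dpi minus untouched, ± SE from a limma fit to the 10 wild-type libraries, and understate changes of low genes. A gene that rose or fell passed an adjusted p of 0.05 (Benjamini-Hochberg over the 10203 genes, two-sided). With 2 libraries against 2, an exact permutation test cannot go below p = 0.3333, so the calls rest on the spread shared across groups and genes. Summed scaled CPM of cardiomyocyte markers were 150224 and 129953 at 14 dpi and 160134 and 173424 in untouched hearts, and of that list 34 of 35 members were tested and none was at 0. Markers of other cell types were detected too, with sums given beside most of the results reported for them, so the preparations are not pure cardiomyocytes. In bulk RNA, fewer cells of a type and less RNA per cell cannot be told apart.

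At 14 dpi 1014 genes (9.94%) were higher and 926 (9.08%) lower than in untouched hearts, 19.0% of those tested, with a median difference over all genes of -0.0093. Libraries of the groups did not overlap in 61.9% of genes. The differences were mostly moderate, with 369 genes higher by 2-fold or more and 217 lower, and 47 higher by 4-fold or more and 18 lower. Leaving out any 1 of the 4 libraries moved these counts by more than 1.5 times, to 487 higher and 388 lower without 14 dpi replicate 1, 365 and 304 without 14 dpi replicate 2, 550 and 498 without untouched replicate 1, and 513 and 389 without untouched replicate 2. Of the 1940 calls, 506 held whichever library was left out, 286 higher and 220 lower. Counts of 2 or more list members at 14 dpi against untouched are followed below, where they move by as much, by left-out counts in that same order of libraries. All such list counts are to be read beside the 9.94% higher and 9.08% lower of all genes.

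**Figure D1:**
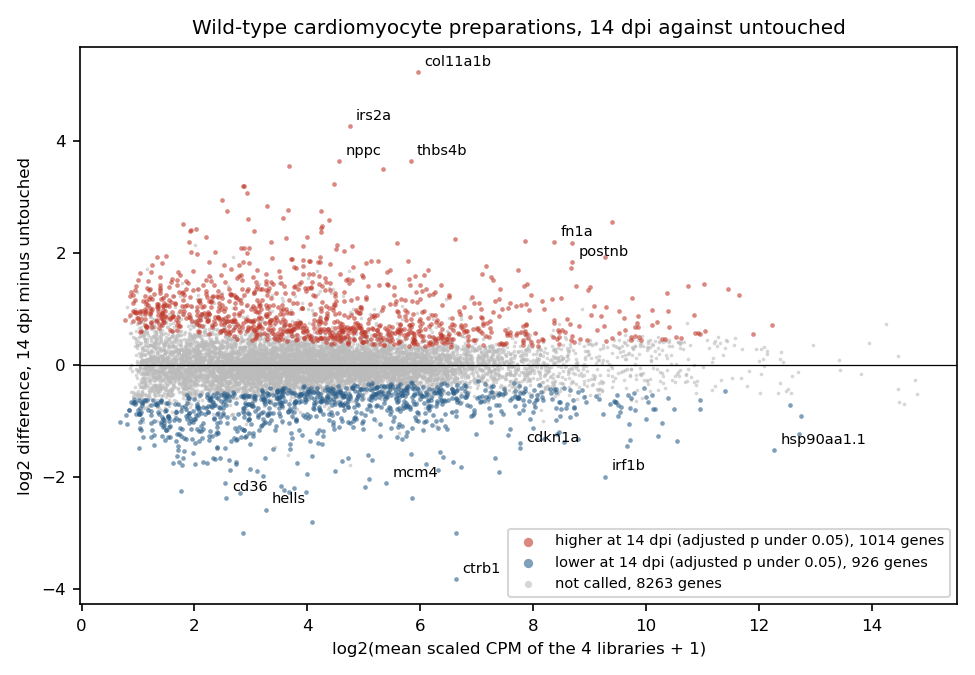
Each point is 1 of the 10203 genes, with the mean level of the 4 libraries on the x axis (log2 of mean scaled CPM + 1) and the log2 difference, 14 dpi minus untouched, on the y axis. Red points are the 1014 genes higher and blue points the 926 lower at an adjusted p under 0.05; col11a1b lies farthest above 0 and ctrb1 farthest below.

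The largest rise was that of col11a1b, a fibrillar collagen chain, with 100.3 and 141 scaled CPM at 14 dpi, against 2.92 and 1.65 in untouched hearts (log2 5.22 ± 0.19, adjusted p = 1.1e-06). thbs4b, a thrombospondin of tendon and muscle matrix, had 131 and 78.2 against 8.36 and 6.28 (log2 3.63 ± 0.25, adjusted p = 4.8e-05). lama1, a laminin chain of basement membranes that passed the limit only through the 14 dpi libraries, had 9.91 and 14.3 against 0.344 and 0.514. In col11a1b and thbs4b the lower 14 dpi library stood well above the higher untouched one. irs2a, an insulin receptor substrate, had 57.2 and 42.9 scaled CPM at 14 dpi, against 2.46 and 1.03 in untouched hearts (log2 4.25 ± 0.26, adjusted p = 3.0e-05). nppc, the C-type natriuretic peptide, had 42.6 and 43.3 against 3.15 and 2.01 (log2 3.64 ± 0.30, adjusted p = 1.1e-04). These 2 genes encode signalling proteins. The largest rises and falls were chosen for groups that do not overlap, so a lack of overlap adds no support.

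The other large rises covered several cell types. aspn, a small leucine-rich proteoglycan, had 9.71 and 8.96 scaled CPM at 14 dpi, against 0.802 and 0.309 in untouched hearts, the claudin gene cldnc had 24.0 and 21.0 against 0.974 and 1.03, and the polarity scaffold gene lin7b had 9.09 and 8.77 against 0.286 and 0.309. All 3 passed the limit only through the 14 dpi libraries. csf1a, a ligand that macrophages need for survival, had 18.3 and 23.6 against 3.26 and 1.44 (log2 2.76 ± 0.24, adjusted p = 1.3e-04). c3a.1, one of several similar complement C3 genes, had 39.9 and 38 against 3.04 and 3.55 (log2 3.22 ± 0.52, adjusted p = 0.0028). The metalloreductase gene steap4 (log2 2.74 ± 0.37), itgbl1 (log2 2.62 ± 0.40) and the secreted glycoprotein gene nell2a (log2 2.60 ± 0.36) rose too. The granulin gene grn1 (log2 3.50 ± 0.65) has a close copy, grn2, with which it may share reads, and lost its call without 14 dpi replicate 2 or untouched replicate 2. grn2 passed the limit only through the 14 dpi libraries, with 5.99 and 19.6 against 0.458 and 0.412.

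The largest fall was that of ctrb1, a pancreatic chymotrypsin precursor, with 6.13 and 22.6 scaled CPM at 14 dpi, against 188 and 177 in untouched hearts (log2 -3.82 ± 0.84, adjusted p = 0.013). Pancreatic and liver transcripts as a list had 1 of 5 tested members higher and 1 lower, of which ctrb1 was the one lower, and its call was lost without 14 dpi replicate 1 or either untouched library. cd36, a fatty acid transporter that passed the limit only through the untouched libraries, had 0.826 and 0.946 against 10.4 and 7.36. ptgr1, a prostaglandin reductase, had 17.4 and 17.8 against 102 and 90.1 (log2 -2.38 ± 0.25, adjusted p = 3.5e-04). ampd1, the muscle AMP deaminase, had 4.27 and 4.48 against 25.9 and 24.0 (log2 -2.27 ± 0.15, adjusted p = 4.8e-05). In ptgr1 and ampd1 the 14 dpi libraries lay close together and far below the untouched ones. tnni1c, a troponin I gene, had 3.51 and 3.24 against 17 and 23.7 (log2 -2.27 ± 0.26, adjusted p = 4.9e-04), and znf367, a zinc finger gene, had 2.89 and 3.34 against 13 and 23.3 (log2 -2.17 ± 0.31, adjusted p = 0.0016). The keratin gene krt97, which passed the limit only through the untouched libraries, was at 0 in both 14 dpi libraries and at 1.66 and 23.4 in untouched hearts, where its 2 libraries differed widely. znfl2a (log2 -2.24 ± 0.68) lost its call without any 1 library.

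**Figure D2:**
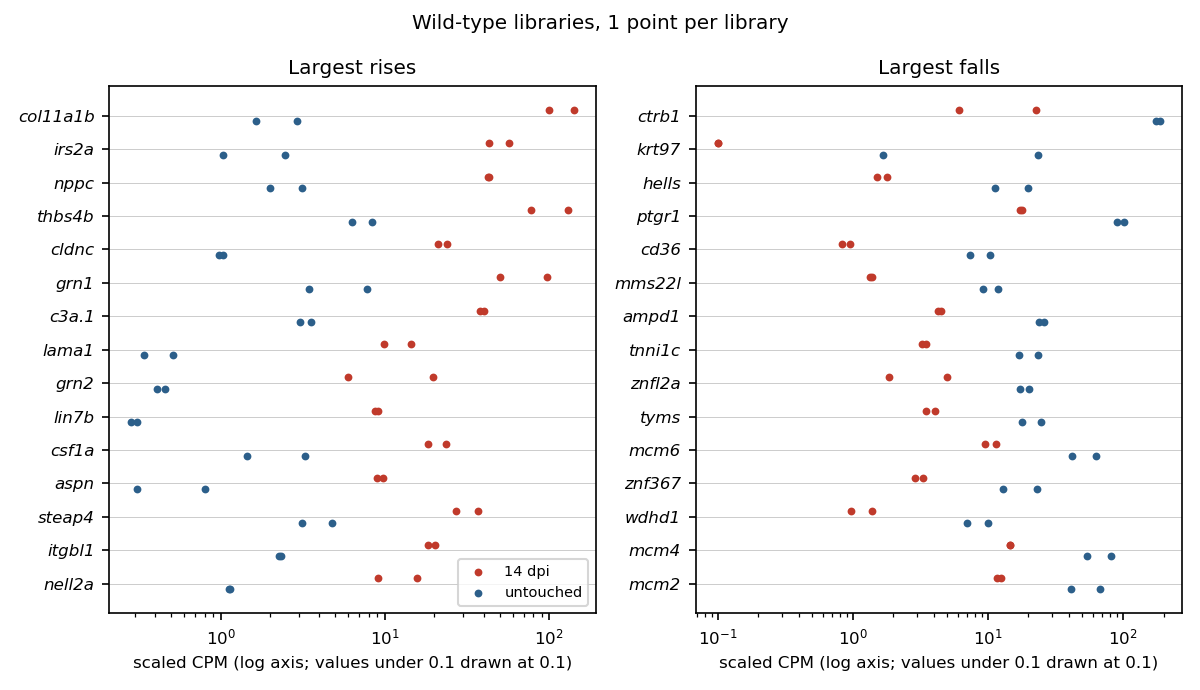
Scaled CPM on a log axis, 1 point per library, for the 15 genes with the largest rises and the 15 with the largest falls among those with an adjusted p under 0.05 and a mean of at least 5 scaled CPM in the higher group, 14 dpi in red and untouched in blue. The groups do not overlap in any of these genes, by the rule that chose them, and aspn, cldnc, grn2, lama1, lin7b, cd36 and krt97 passed the 1 CPM limit only through the group where they are high; krt97 at 14 dpi is 0 and is drawn at 0.1.

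Most of the remaining large falls were DNA replication genes, and the list of replication and nucleotide supply genes had a larger share of falls than any other list examined. Of 56 members tested, 48 fell and 0 rose (against 9.08% of all genes falling), with a median of -1.27, and 38 of the 48 kept the call whichever library was left out. Genes of the MCM helicase that opens the DNA fell, among them mcm4, which had 14.5 and 14.6 scaled CPM at 14 dpi, against 54.4 and 81.3 in untouched hearts (log2 -2.12 ± 0.19, adjusted p = 1.3e-04), mcm2 with 12.5 and 11.7 against 41.1 and 67.9 (log2 -2.04 ± 0.24, adjusted p = 5.6e-04) and mcm6 with 11.6 and 9.56 against 41.6 and 62.9 (log2 -2.18 ± 0.21, adjusted p = 1.9e-04). hells, a chromatin helicase, had 1.51 and 1.79 against 11.2 and 19.8 (log2 -2.59 ± 0.23, adjusted p = 1.3e-04), and wdhd1, which couples helicase and polymerase, 0.964 and 1.39 against 6.99 and 10.1 (log2 -2.12 ± 0.20, adjusted p = 1.8e-04). For mcm2, mcm4, mcm6 and hells, untouched replicate 2 stood higher than replicate 1. Both stood above the 14 dpi pair, which adds no support, since groups did not overlap in 61.9% of all genes. The polymerase gene pole (log2 -1.66 ± 0.14), the fork repair gene mms22l (log2 -2.29 ± 0.20) and the genes of nucleotide supply tyms (log2 -2.21 ± 0.19), rrm2 (log2 -1.75 ± 0.15) and tk1 (log2 -1.73 ± 0.14) followed. Summed scaled CPM of the list were 422 and 419 at 14 dpi and 958 and 1232 in untouched hearts. 6 members passed the filter only through the untouched libraries, and without them 42 of 50 fell.

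Most mitosis genes fell too, with 31 of 42 tested members lower and 0 higher and a median of -0.76. 11 of these members passed the filter only through the untouched libraries, and without them 20 of 31 fell. smc2, a condensin subunit that compacts chromosomes, had 2.27 and 3.04 scaled CPM at 14 dpi, against 11.5 and 13.5 in untouched hearts (log2 -1.89 ± 0.18, adjusted p = 1.8e-04). mki67, a marker of cycling cells, had 4.34 and 4.03 against 8.93 and 10.6 (log2 -1.05 ± 0.15, adjusted p = 0.0013), and ncapg2, another condensin subunit that passed the limit only through the untouched libraries, 0.757 and 0.747 against 3.55 and 4.06. Left-out counts of falling mitosis genes were 17, 21, 23 and 17. Among cyclins, inhibitors and regulators of G1, 13 of 35 fell and 1 rose (left-out falls 4, 7, 8 and 7). They included mybl2b, which drives cell cycle transcription, with 1.45 and 1.34 against 6.41 and 6.79 (log2 -1.67 ± 0.15, adjusted p = 1.3e-04). They also included cdkn1a, the p21 inhibitor that stops the cycle, with 114 and 114 against 322 and 322 (log2 -1.49 ± 0.11, adjusted p = 6.8e-05). The 1 member that rose, named after its value was seen, was cdkn1bb, another inhibitor, with 57.0 and 63.5 against 39.2 and 38.8 (log2 0.61 ± 0.14, adjusted p = 0.016), a call lost without 14 dpi replicate 2 or either untouched library.

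The time course placed these falls. Replication genes at 7 dpi were lower than in untouched hearts in 40 of 56 and higher in 0 (median -0.66, background 15% lower and 14.6% higher), whereas mitosis genes were higher in 12 of 42 and lower in 1 (median 0.11). The same untouched libraries serve both times. Tested directly, 21 of 56 replication genes and 36 of 42 mitosis genes were lower at 14 dpi than at 7 dpi and 0 higher, against 4.56% of all genes lower and 3.8% higher. These counts and those at 7 dpi keep the 6 replication and 11 mitosis members that passed the filter only through the untouched libraries. Their low 14 dpi values were a condition of the filter, which favours such falls. Counts without them were not made. mki67 stood at 8.93 and 10.6 scaled CPM in untouched hearts, 55.4 and 53.2 at 2 dpi, 17.3 and 13.5 at 5 dpi, 12.8 and 12.6 at 7 dpi and 4.34 and 4.03 at 14 dpi. Its highest values were thus at 2 dpi and its lowest at 14 dpi (14 dpi minus 7 dpi, log2 -1.40 ± 0.15, adjusted p = 0.0018). rrm2 followed 20.3 and 21.0 in untouched hearts with 31.4 and 33.0 at 2 dpi, 31.0 and 24.0 at 5 dpi, 13.7 and 12.1 at 7 dpi and 5.92 and 4.98 at 14 dpi. Its fall below the untouched level began by 7 dpi and went further by 14 dpi (14 dpi minus 7 dpi, log2 -1.11 ± 0.15, adjusted p = 0.0039). mcm4 was at 34.1 and 29.6 at 7 dpi, between its untouched and 14 dpi values.

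More extracellular matrix genes rose than fell at 14 dpi. Of 18 collagen chains tested 7 rose and 5 fell (median 0.39, left-out falls 2, 3, 2 and 4), and summed scaled CPM were 8223 and 9477 at 14 dpi and 3552 and 3843 in untouched hearts. The chains of fibrillar collagen type I rose together. col1a1a had 2329 and 2641 scaled CPM at 14 dpi, against 884 and 999.6 in untouched hearts (log2 1.40 ± 0.24, adjusted p = 0.0042), col1a1b 2870 and 3274 against 1075 and 1177 (log2 1.45 ± 0.23, adjusted p = 0.0026) and col1a2 1770 and 1999 against 739 and 801 (log2 1.29 ± 0.22, adjusted p = 0.0041). In each chain the groups did not overlap, as in 61.9% of all genes, which adds no support to these calls. Both libraries of a group lay close together. The chain gene col9a2, a type IX collagen, fell, with 2.48 and 4.28 against 11.7 and 9.16 (log2 -1.41 ± 0.24, adjusted p = 0.0037).

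Of 42 matrix glycoproteins, 15 rose and 4 fell (median 0.31, left-out rises 10, 10, 10 and 12, left-out falls 1, 0, 2 and 3). fn1a, fibronectin of the early injury matrix, had 481 and 605 scaled CPM at 14 dpi, against 109.5 and 126 in untouched hearts (log2 2.19 ± 0.14, adjusted p = 4.6e-05). postnb, the matricellular protein periostin, had 536 and 755 against 179 and 178 (log2 1.83 ± 0.16, adjusted p = 1.3e-04), and lum, the collagen-binding proteoglycan lumican, 71.6 and 84.7 against 13.7 and 19.6 (log2 2.18 ± 0.23, adjusted p = 3.0e-04). has1, a hyaluronan synthase, had 9.98 and 9.31 against 2.0 and 2.21 (log2 1.78 ± 0.12, adjusted p = 4.8e-05). In each of these genes both 14 dpi libraries lay above both untouched ones. They were chosen among called members, and groups did not overlap in 61.9% of all genes, so this adds no support. Of 38 enzymes and inhibitors that crosslink, process or degrade matrix, 19 rose and 3 fell (median 0.59, left-out rises 16, 12, 15 and 14, left-out falls 1 each). The gelatinase gene mmp2 (log2 1.34 ± 0.14), the membrane protease gene mmp14a (log2 1.25 ± 0.12), the lysyl oxidase gene loxl2a (log2 1.61 ± 0.21) and plod2, a collagen lysyl hydroxylase (log2 1.22 ± 0.11), rose, so both building and degrading enzymes were among the members that passed.

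Several markers of epicardium and fibroblasts were higher too, some of which are themselves matrix genes. Of 32 tested 18 rose and 0 fell (median 0.63), 13 of them whichever library was left out, and summed scaled CPM were 16769 and 19055 at 14 dpi and 10432 and 11143 in untouched hearts. That sum and the rises include the collagen I chains, dcn, lum and tgm2b, which also belong to the matrix lists. The part of these markers in the matrix result was not tested. prrx1a, a transcription factor of mesenchymal cells, had 26.5 and 36.7 scaled CPM at 14 dpi, against 5.10 and 4.48 in untouched hearts (log2 2.48 ± 0.18, adjusted p = 6.6e-05). wt1b, a transcription factor of activated epicardium, had 24.3 and 37.3 against 5.50 and 4.58 (log2 2.37 ± 0.19, adjusted p = 9.8e-05), and mdka, the growth factor midkine, 569 and 786 against 155 and 140.1 (log2 2.18 ± 0.17, adjusted p = 6.8e-05). In wt1b and mdka, 14 dpi replicate 2 was the higher of its pair. Both replicates exceeded the untouched ones, which adds no support, since groups did not overlap in 61.9% of all genes. The proteoglycan gene dcn (log2 1.2 ± 0.14) and the guidance ligand gene sema3d (log2 1.15 ± 0.17) were higher as well. The epicardial genes tcf21 (log2 0.34, adjusted p = 0.33), tbx18 (log2 0.42, adjusted p = 0.087) and aldh1a2 (log2 0.28, adjusted p = 0.28) did not pass. They were picked after their values were seen. Of the 32 differences 27 were positive and 5 negative. Without the members that passed the filter only through 1 group, 17 of 31 of these markers, 13 of 40 matrix glycoproteins and 6 of 15 collagen chains rose. Of 19 smooth muscle and pericyte markers 2 rose, among them tagln (log2 1.17 ± 0.17), and 1 fell (left-out rises 1, 1, 1 and 3, left-out falls 0, 0, 0 and 1), a share of rises near the 9.94% of all genes. Their summed scaled CPM were 11788 and 10033 at 14 dpi and 9919 and 11480.5 in untouched hearts.

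Several of the matrix and epicardial genes were at 14 dpi already below their level at 7 dpi. fn1a stood at 109.5 and 126 scaled CPM in untouched hearts, 3760 and 3674 at 2 dpi, 1334 and 1303 at 5 dpi, 1654 and 1419 at 7 dpi and 481 and 605 at 14 dpi. Its peak lay at 2 dpi, and it fell between 7 and 14 dpi (log2 -1.50 ± 0.14, adjusted p = 0.0016). postnb stood at 179 and 178 in untouched hearts, 392 and 461 at 2 dpi, 1305 and 1272 at 5 dpi, 1837 and 1886 at 7 dpi and 536 and 755 at 14 dpi. Its highest level was at 7 dpi, later than that of fn1a, with a lower level at 14 dpi (log2 -1.55 ± 0.16, adjusted p = 0.0018). The difference 14 dpi minus 7 dpi was also negative for wt1b (log2 -1.77 ± 0.19, adjusted p = 0.0019), mdka (log2 -1.53 ± 0.17, adjusted p = 0.0019) and has1 (log2 -2.01 ± 0.12, adjusted p = 1.5e-04). thbs4b ran another course, at 8.36 and 6.28 in untouched hearts, 8.29 and 12.2 at 2 dpi, 27.9 and 32.7 at 5 dpi, 61.8 and 48.6 at 7 dpi and 131 and 78.2 at 14 dpi. Its highest mean was at 14 dpi, but the step from 7 dpi did not pass the test (log2 0.87 ± 0.25, adjusted p = 0.060). Of matrix enzymes 13 of 38 were lower than at 7 dpi and 1 higher, of matrix glycoproteins 7 of 42 lower and 2 higher, and of collagen chains 2 of 18 lower and 2 higher. Over all genes 4.56% were lower and 3.8% higher.

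**Figure D3:**
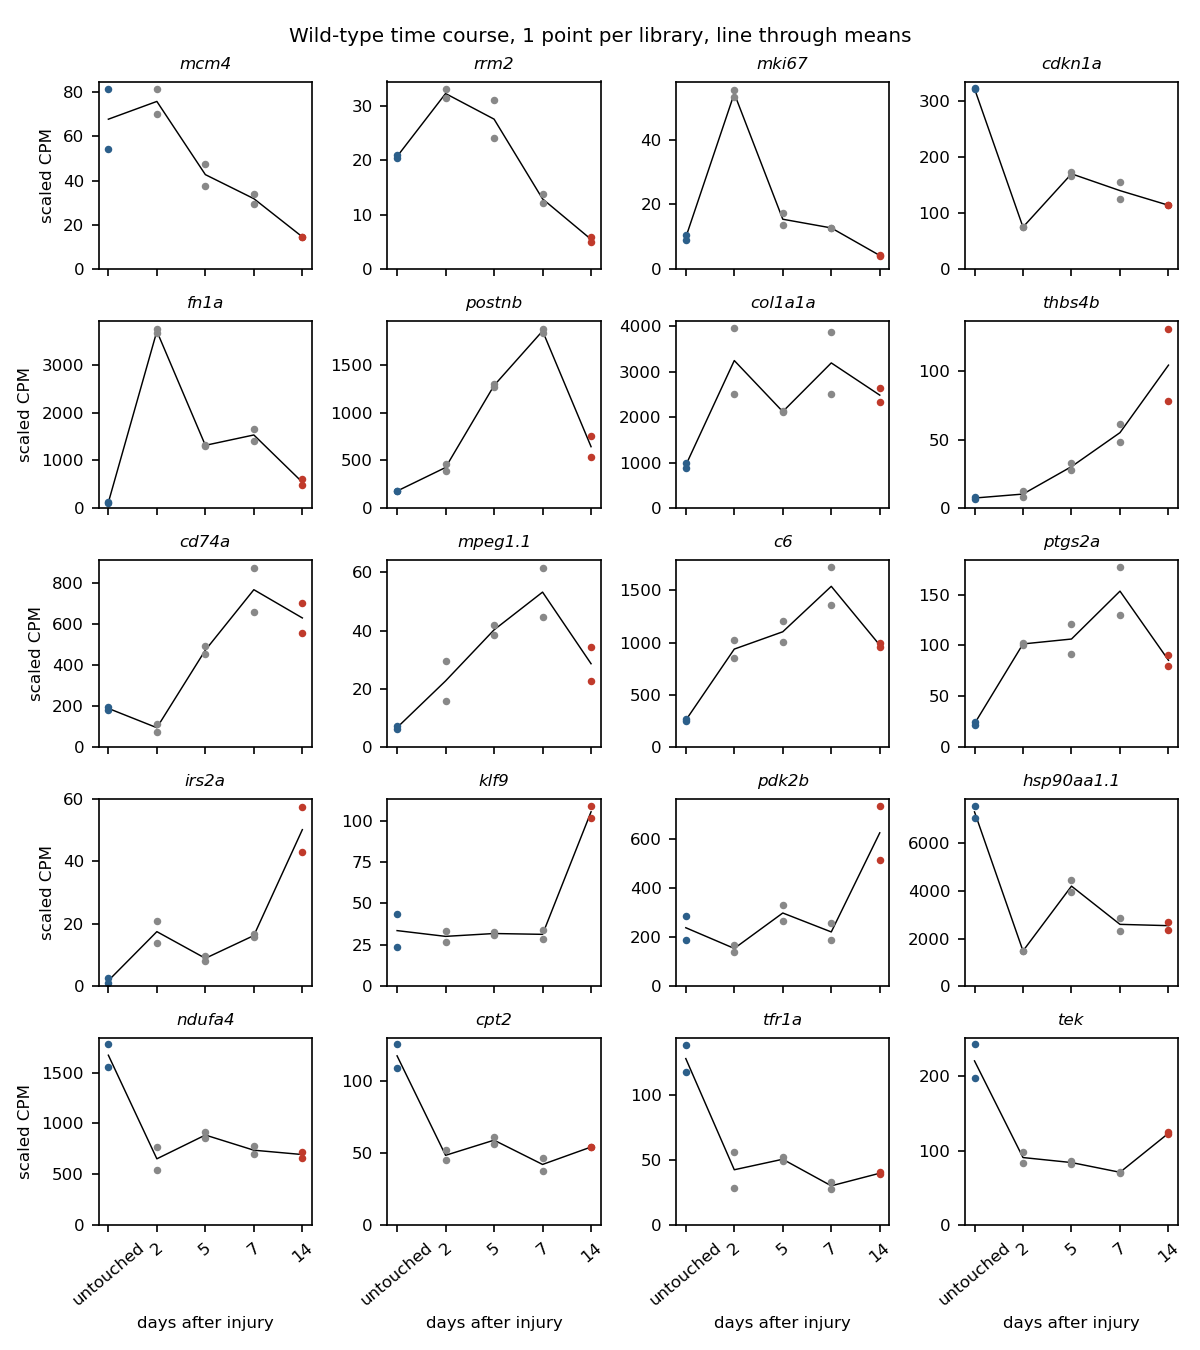
Scaled CPM of 20 genes in the 10 wild-type libraries, with untouched hearts (blue), 2, 5 and 7 dpi (grey) and 14 dpi (red) on the x axis, 1 point per library and a line through the means. fn1a and mki67 are highest at 2 dpi and postnb at 7 dpi, while irs2a, klf9 and pdk2b are highest at 14 dpi.

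In the lists of macrophage, antigen presentation, neutrophil and complement genes, more members rose than fell. Of 30 macrophage markers 22 rose and 1 fell, with a median of 1.42, and summed scaled CPM were 2332 and 2870 at 14 dpi and 1330 and 1279 in untouched hearts. That count leaned on single libraries, with left-out counts of 15, 3, 10 and 7. mpeg1.1, a perforin of macrophages, had 22.9 and 34.4 scaled CPM at 14 dpi, against 7.27 and 6.12 in untouched hearts (log2 1.92 ± 0.28, adjusted p = 0.0016). cd74a, the invariant chain of class II antigen presentation, had 554 and 704 against 182 and 194 (log2 1.73 ± 0.21, adjusted p = 7.0e-04), its partner copy cd74b 201 and 238 against 70.9 and 57.6 (log2 1.76 ± 0.21, adjusted p = 7.1e-04), and the C1q chain gene c1qc 31.9 and 47.1 against 9.91 and 7.82 (log2 2.02 ± 0.37, adjusted p = 0.0057), a call lost without 14 dpi replicate 2. Replicate 2 was the higher of the 14 dpi pair in these genes. The one macrophage-list member that fell was stab1 (log2 -1.0 ± 0.14), a scavenger receptor that endothelial cells also carry. Another 7 members were not called. Among them was mpeg1.2, a copy of mpeg1.1, with a negative difference (log2 -0.29, adjusted p = 0.21). Of the 30 differences 27 were positive and 3 negative. Of 12 antigen presentation genes 9 rose and 0 fell (median 0.79, left-out counts 9, 5, 6 and 6), including b2m (log2 0.82 ± 0.10) and mhc1uka (log2 1.58 ± 0.20), a class I gene with close copies.

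Of 22 neutrophil markers 9 rose and 0 fell (median 1.26, left-out counts 6, 4, 6 and 5), and summed scaled CPM were 1189 and 1357 at 14 dpi and 791 and 850.2 in untouched hearts. mmp9, a gelatinase of granulocytes, had 26.0 and 35.9 scaled CPM at 14 dpi, against 4.07 and 5.61 in untouched hearts (log2 2.45 ± 0.35, adjusted p = 0.0017). alox5ap, which serves leukotriene synthesis and passed the limit only through the 14 dpi libraries, had 4.27 and 5.68 against 0.802 and 0.926. The defining neutrophil genes mpx (log2 1.13 ± 0.39, adjusted p = 0.073) and lyz (log2 1.25 ± 0.45, adjusted p = 0.080), picked for naming after their values were seen, did not pass. They did in a fit to the 4 compared libraries alone (adjusted p = 0.0050 and 0.0025). That fit takes the spread from fewer libraries and is among several alternatives, so it does not replace the main result. Of 11 complement genes 8 rose and 0 fell (median 1.57, left-out counts 8, 4, 8 and 6). c6, a component of the membrane attack complex, had 992 and 959 against 265 and 249 (log2 1.92 ± 0.16, adjusted p = 1.0e-04), and cfd, complement factor D, had 339 and 308 against 150.2 and 176 (log2 0.98 ± 0.15, adjusted p = 0.0023). The lists share members that rose, so their counts are not independent. c1qa, c1qb and c1qc of complement and cd74a and cd74b of antigen presentation also count as macrophage markers. clu of complement is also an epicardial marker, and mmp9 also a matrix enzyme. Of 34 cytokines, chemokines and lipid mediators 12 rose and 2 fell (median 0.76, left-out rises 8, 5, 8 and 7, left-out falls 0 each), among them the cyclooxygenase genes ptgs2a (log2 1.85 ± 0.17) and ptgs2b (log2 1.51 ± 0.20). The chemokine genes cxcl12a (log2 2.25 ± 0.21) and cxcl12b (log2 1.43 ± 0.14) rose too. The list of 34 also holds signalling genes and annexins, of which stat3, anxa1a and anxa2a rose and socs3a fell. Of its cytokine genes csf1a and csf3b rose. Those that did not pass included il1b (log2 0.81, adjusted p = 0.44), tnfa (log2 0.49, adjusted p = 0.32), tnfb (log2 0.82, adjusted p = 0.35) and il6 (log2 -0.53, adjusted p = 0.32). These genes were picked after their values were seen. Against 7 dpi, 3 of 30 macrophage, 1 of 22 neutrophil, 4 of 12 antigen presentation and 3 of 11 complement genes were lower at 14 dpi and 0, 1, 0 and 0 higher. Over all genes 4.56% were lower and 3.8% higher, so the neutrophil counts were near those shares and show no decline. Without the members that passed the filter only through the 14 dpi libraries, 21 of 29 macrophage, 7 of 20 neutrophil and 7 of 10 complement genes rose. Of lymphocyte markers 2 of 8 rose and 0 fell (left-out rises 1, 0, 1 and 1), with summed scaled CPM of 111 and 130.1 at 14 dpi and 82.9 and 95.0 in untouched hearts.

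Some endothelial and red cell markers fell, and most of them did not pass the test. Of 48 endothelial and endocardial markers 13 fell and 2 rose (median -0.32, left-out falls 3, 6, 7 and 4, left-out rises 2, 1, 3 and 2), beside 9.08% lower and 9.94% higher of all genes. Their summed scaled CPM were 8028 and 8648 at 14 dpi and 10438 and 10924 in untouched hearts. tek, the angiopoietin receptor, had 125 and 122 scaled CPM at 14 dpi, against 243 and 198 in untouched hearts (log2 -0.83 ± 0.12, adjusted p = 0.0019), and vegfaa, a vascular growth factor that other cells make, 20.2 and 21.5 against 38.2 and 39.1 (log2 -0.86 ± 0.12, adjusted p = 0.0014). The defining endothelial genes cdh5 (log2 -0.16 ± 0.10, adjusted p = 0.30), kdrl (log2 0.14 ± 0.12, adjusted p = 0.48) and pecam1 (log2 0.072 ± 0.14, adjusted p = 0.77), also picked after their values were seen, did not pass. At 7 dpi 23 of the 48 were lower than in untouched hearts and 2 higher, beside 15% and 14.6% of all genes. Between 7 and 14 dpi tek rose again (log2 0.79 ± 0.12, adjusted p = 0.0074). All 19 tested erythroid markers had negative differences, with a median of -0.74 and summed scaled CPM of 6185 and 6418 at 14 dpi and 8661 and 8881 in untouched hearts. Only 4 fell by the test (left-out counts 3, 1, 2 and 2), beside 9.08% of all genes. The clearest was tfr1a, the transferrin receptor that brings in iron, with 40.8 and 39.0 against 117 and 139 (log2 -1.65 ± 0.24, adjusted p = 0.0018).

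**Figure D4:**
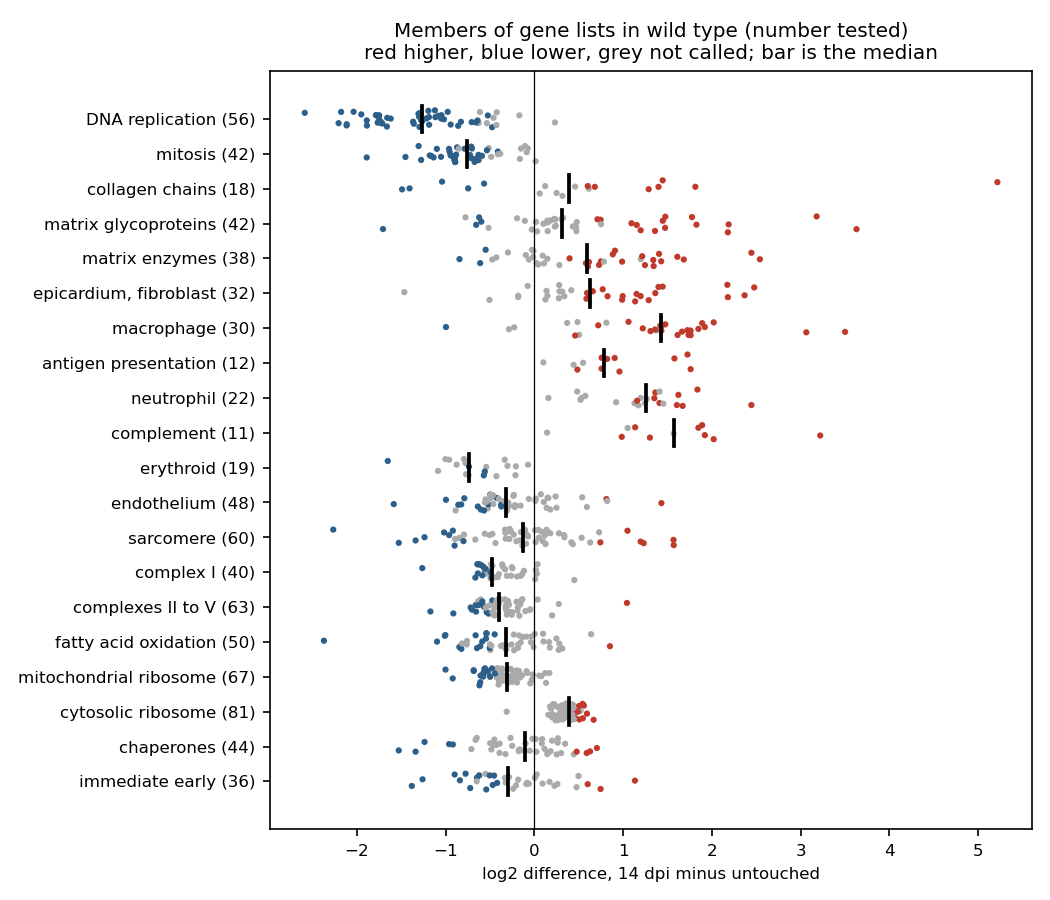
Each point is a tested member of a gene list, placed by its log2 difference, 14 dpi minus untouched, with red for higher and blue for lower at an adjusted p under 0.05, grey for not called and a black bar at the list's median. Replication genes lie farthest to the left as a list (median -1.27), complement and macrophage genes farthest to the right (1.57 and 1.42).

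Contractile genes were called in both directions. Of 34 cardiomyocyte markers 3 fell and 1 rose (left-out falls 2, 1, 3 and 1), beside 9.08% lower and 9.94% higher of all genes, with a median of -0.15. The 3 markers with the most reads did not pass. vmhcl, a ventricular myosin heavy chain, had 26474 and 24168 scaled CPM at 14 dpi, against 29084 and 31846 in untouched hearts (log2 -0.27 ± 0.25, adjusted p = 0.50). myl7, a myosin light chain, had 20636 and 17956 against 25005 and 27248 (log2 -0.44 ± 0.25, adjusted p = 0.25), and mb, myoglobin, 24633 and 22453 against 33928 and 33573 (log2 -0.52 ± 0.25, adjusted p = 0.17). The values at 14 dpi were below both untouched ones in each of these genes, by less than the test requires, which does not show equal levels. Groups did not overlap in 61.9% of all genes. At 7 dpi 18 of the 34 markers had been lower than in untouched hearts and 0 higher (median -0.65), beside 15% and 14.6% of all genes. Against 7 dpi, 4 of 34 were higher at 14 dpi and 0 lower, beside 3.8% and 4.56% of all genes. mef2ca, a transcription factor of muscle, fell, with 120.3 and 117 against 239 and 294 (log2 -1.15 ± 0.19, adjusted p = 0.0035). smyd1b, a myosin methyltransferase, was the member that rose (log2 1.57 ± 0.31), a call lost without 14 dpi replicate 1 or untouched replicate 2.

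Of 60 sarcomere, Z-disc and associated proteins 9 fell and 6 rose (median -0.12, left-out falls 9, 6, 8 and 7, left-out rises 2, 4, 3 and 3, 19.0% of all genes called in either direction). The falls were headed, after tnni1c, by chaperones that fold and guard muscle proteins. hsp90aa1.1, the muscle HSP90 that folds myosin and has a close copy, had 2713 and 2371 scaled CPM at 14 dpi, against 7074 and 7583 in untouched hearts (log2 -1.53 ± 0.16, adjusted p = 3.5e-04). Its partner unc45b had 501 and 452 against 1097 and 1326 (log2 -1.34 ± 0.16, adjusted p = 7.0e-04), and bag3, which clears damaged filaments, 3925 and 4069 against 9048 and 9834 (log2 -1.24 ± 0.18, adjusted p = 0.0020). hspb8, a small heat shock protein that works with bag3, had 710.1 and 678 against 1315 and 1391 (log2 -0.96 ± 0.16, adjusted p = 0.0030). Their differences between 14 and 7 dpi ran from -0.23 for bag3 to 0.19 for hspb8 and did not pass. The chaperone list given next shares all 5 of its falls with this list, namely these genes and hspb1. Its counts are near the 9.08% lower and 9.94% higher of all genes. Among 44 cytosolic chaperones as a list 5 fell and 4 rose (left-out rises 0, 2, 0 and 2). Of 45 genes of calcium handling and excitation 6 fell and 1 rose (left-out falls 2, 2, 4 and 3, left-out rises 0 each), with atp1b1b, a sodium pump subunit, at 27.4 and 39.0 against 103 and 146 (log2 -1.88 ± 0.28, adjusted p = 0.0018).

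Part of the mitochondrial genes fell, by modest amounts. Of 40 complex I genes 13 fell and 0 rose (median -0.48), of 63 genes of complexes II to V 14 fell and 1 rose (median -0.40), and of 67 mitochondrial ribosomal proteins 16 fell and 0 rose (median -0.31). These counts leaned on single libraries, with left-out falls of 3, 1, 3 and 1 for complex I, 4, 1, 7 and 1 for complexes II to V, and 4, 1, 10 and 1 for the mitochondrial ribosome. ndufa4, a respiratory chain subunit, had 724 and 665 scaled CPM at 14 dpi, against 1560 and 1783 in untouched hearts (log2 -1.26 ± 0.17, adjusted p = 0.0011), the largest fall of its list. Of 50 genes of fatty acid transport and oxidation 15 fell and 1 rose (median -0.32, left-out falls 11, 4, 8 and 5). cpt2, which loads fatty acids onto coenzyme A inside the mitochondrion, had 54.3 and 54.0 against 109 and 126 (log2 -1.10 ± 0.13, adjusted p = 7.0e-04), and ucp3, an uncoupling protein, 29.2 and 29.4 against 65.8 and 54.8 (log2 -1.01 ± 0.12, adjusted p = 7.0e-04). Of 34 genes of pyruvate dehydrogenase and the TCA cycle 10 fell (left-out counts 5, 0, 5 and 1), and the 1 that rose was pdk2b, a kinase that switches pyruvate dehydrogenase off, with 737 and 517 against 288 and 189 (log2 1.40 ± 0.24, adjusted p = 0.0041).

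Counts of falls were higher at 7 dpi. There 35 of 40 complex I genes, 54 of 63 of complexes II to V, 33 of 50 of fatty acid oxidation and 53 of 67 of the mitochondrial ribosome were lower than in untouched hearts. Over all genes 15% were lower at 7 dpi. Medians of these lists were -1.0, -0.91, -0.71 and -0.60. Tested between 14 and 7 dpi, 8, 15, 13 and 1 of those members were higher at 14 dpi. Lower were 0, 0, 1 and 0 of them (over all genes 3.8% were higher and 4.56% lower). For the mitochondrial ribosome, with 1 of 67, a larger fall at 7 dpi is thus not shown. The other counts were not followed with a library left out, where calls over all genes between these times became far fewer. Of cytosolic ribosomal proteins 14 of 81 were higher and 0 lower at 14 dpi than in untouched hearts, and 80 of 81 differences were positive (median 0.39). That count depended on the scaling and on single libraries, at 54 with CPM as deposited, 43 with quantile normalization and left-out counts of 0, 0, 1 and 1. rpl5b (log2 0.67 ± 0.16, adjusted p = 0.016) was called with all libraries and not without 14 dpi replicate 1, 14 dpi replicate 2 or untouched replicate 1. The proteasome and glycolysis counts that follow are near or below the 9.94% higher and 9.08% lower of all genes. Of 42 proteasome genes 2 rose and 3 fell (left-out rises 1, 0, 2 and 0, left-out falls 0 each), and of 41 glycolysis genes 3 rose and 5 fell (left-out rises 0, 0, 0 and 1, left-out falls 3, 0, 2 and 0).

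Stress and hormone-responsive genes differed in both directions. Of 36 immediate early and AP-1 genes 13 fell and 3 rose (median -0.30, left-out falls 5, 5, 9 and 5, left-out rises 2, 1, 1 and 2). jdp2b, an AP-1 repressor, had 200.5 and 213 scaled CPM at 14 dpi, against 571 and 513 in untouched hearts (log2 -1.38 ± 0.13, adjusted p = 1.8e-04), fosb 97.0 and 110.5 against 221 and 170.4 (log2 -0.90 ± 0.16, adjusted p = 0.0055) and klf11b, a Krüppel-like repressor, 104 and 110.2 against 205 and 325 (log2 -1.26 ± 0.18, adjusted p = 0.0015). fosl2, another AP-1 member, rose, with 367 and 418 against 179 and 177 (log2 1.13 ± 0.15, adjusted p = 0.0010). irf1b, a transcription factor of interferon signalling, fell most in the interferon list, with 257 and 239 against 1031 and 956 (log2 -2.0 ± 0.19, adjusted p = 1.9e-04), the 1 fall among 24 members tested, of which 2 rose (left-out rises 0, 0, 1 and 0), beside 9.94% of all genes. Immediate early genes were also lower at 7 dpi, in 14 of 36 against 4 higher, beside 15% of all genes lower and 14.6% higher.

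Of 58 genes of insulin, FoxO and glucocorticoid signalling 13 rose and 4 fell (median 0.057, left-out rises 3, 3, 9 and 3). Besides irs2a, klf9, a transcription factor induced by glucocorticoids, had 109 and 102 scaled CPM at 14 dpi, against 43.7 and 23.4 in untouched hearts (log2 1.69 ± 0.24, adjusted p = 0.0014). The falls included trim63a, a ubiquitin ligase that degrades muscle protein, with 264 and 243 against 593 and 685 (log2 -1.33 ± 0.22, adjusted p = 0.0038), its copy trim63b (log2 -1.03 ± 0.18) and sesn3, a stress-responsive sestrin (log2 -0.90 ± 0.12). In the clock list, where 5 of 44 rose and 2 fell (left-out rises 1, 3, 3 and 3, left-out falls 1, 0, 2 and 4, near the 9.94% and 9.08% of all genes), nfil3-5, a repressor of the clock output, had 25 and 28.2 against 9.05 and 7.46 (log2 1.58 ± 0.15, adjusted p = 1.9e-04). irs2a, klf9, pdk2b and nfil3-5 were each higher at 14 dpi than at 7 dpi, in calls that were not followed with a library left out. klf9 stood at 43.7 and 23.4 in untouched hearts, 33.5 and 26.6 at 2 dpi, 30.9 and 32.7 at 5 dpi, 28.7 and 33.9 at 7 dpi and 109 and 102 at 14 dpi. Both 14 dpi values were above those of every other wild-type library (14 dpi minus 7 dpi, log2 1.72 ± 0.24, adjusted p = 0.0045). pdk2b was at 187 and 257 at 7 dpi (log2 1.49 ± 0.24, adjusted p = 0.0084), irs2a at 15.7 and 16.6 (log2 1.56 ± 0.26, adjusted p = 0.010) and nfil3-5 at 10.6 and 9.49 (log2 1.32 ± 0.15, adjusted p = 0.0021).

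Among 84 growth factor ligands, receptors and antagonists 23 rose and 12 fell (median 0.11, left-out rises 10, 8, 12 and 13, left-out falls 7, 5, 8 and 5). Besides mdka, cxcl12a and csf1a, sfrp1a, a secreted Wnt antagonist, had 62.5 and 70.3 scaled CPM at 14 dpi, against 19.8 and 20.0 in untouched hearts (log2 1.69 ± 0.11, adjusted p = 3.0e-05), and bmp6, a bone morphogenetic protein, 14.7 and 14.3 against 5.15 and 5.61 (log2 1.28 ± 0.13, adjusted p = 2.8e-04). Of the kit pathway genes, which the mutants of the series concern, the receptor gene kita had 12 and 17 reads at 14 dpi and 17 and 26 in untouched hearts, and kitb had 0 and 3 against 2 and 4. Both stayed under the filter. The ligand gene kitlga had 8.61 and 11.9 scaled CPM at 14 dpi, against 7.22 and 8.18 (log2 0.36 ± 0.18, adjusted p = 0.20), and kitlgb had 0 reads at 14 dpi, against 0 and 1.

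The wild-type difference was last set against 7 dpi and against the mutants over all genes. Between 14 and 7 dpi 388 genes were higher and 465 lower (222 and 1075 with CPM as deposited, which moved the median of all genes to -0.17). Without 1 library these fell to 19 and 46 (14 dpi replicate 1), 128 and 208 (14 dpi replicate 2), 66 and 128 (7 dpi replicate 1) or 105 and 194 (7 dpi replicate 2). Of the 1014 genes higher than in untouched hearts, 116 were lower than at 7 dpi and 104 higher. Of the 926 lower than in untouched hearts, 97 were lower than at 7 dpi and 30 higher. Both comparisons use the same 14 dpi libraries. Calls of single genes and list counts against 7 dpi given above were not followed through the runs with a library left out. The list counts also keep members that passed the filter only through 1 group.

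The same difference was formed in kita/kitb mutants. The mutant untouched libraries were nearly identical (mean chi-square per gene of 2.51, against 18.1 to 46.6 in wild-type pairs). They were averaged and counted as 1 sample. The spread for the mutant difference alone thus came from mutant pairs that were not averaged, with 2 residual degrees of freedom, against 5 in wild type. The genes tested were those that passed the filter in the wild-type libraries. For both reasons the mutant counts below cannot be compared in size with the wild-type counts, and a smaller mutant response is not shown by them. Genotype cannot be told apart from any batch difference between mutant and wild-type libraries. In mutants 677 genes (6.64%) were higher and 518 (5.08%) lower at 14 dpi than untouched, 11.7% of those tested together. The difference of the responses, mutant minus wild type, was positive in 1124 genes (11.0%) and negative in 1027 (10.1%), 21.1% together (1445 and 665 with CPM as deposited, which moved the median of all genes to 0.22). Of the 1940 genes called in wild type, 962 were among them. For replication genes it was positive in 42 of 56 and negative in 0 (median 1.71). mcm4 had 43.3 and 34.3 scaled CPM in mutants at 14 dpi and 17.7 and 18.6 in untouched mutants, where wild type had 14.5 and 14.6 at 14 dpi and 54.4 and 81.3 untouched (log2 3.16 ± 0.31, adjusted p = 9.7e-05). The mutant level at 14 dpi thus lay above the untouched one for mcm4, and in wild type below it. For cytosolic ribosomal proteins the difference was negative in 79 of 81 (median -1.11) and for neutrophil markers in 22 of 22 (median -3.49). In mutants alone, 20 of 22 neutrophil markers were lower at 14 dpi than untouched and 0 higher (median -2.14). For collagen chains the difference of the responses was positive in 7 of 18 and negative in 0 (median 0.95). These list counts keep 6 replication, 2 neutrophil and 3 collagen members that passed the filter only through 1 wild-type group. The filter favoured a wild-type difference in those members, so they add no support. List counts of the mutants and of the response difference were not followed through other scalings or with a library left out. irs2a had 89.5 and 87.4 in mutants at 14 dpi and 36.2 and 34.6 in untouched mutants (log2 -2.96 ± 0.38, adjusted p = 3.8e-04), and cdkn1a 239.6 and 148 in mutants at 14 dpi and 97.5 and 103 in untouched ones (log2 2.39 ± 0.28, adjusted p = 2.5e-04). col11a1b did not pass, with 88.0 and 145 in mutants at 14 dpi and 0.737 and 0.957 in untouched mutants (log2 0.73 ± 0.36, adjusted p = 0.18).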

How the data were processed

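Polyadenylated RNA was sequenced in 20 libraries. Reads were checked with FastQC and counted with featureCounts on danRer10, per the submitters' processing notes; the sources used here do not name the aligner, the annotation or the handling of strand and shared reads. The deposited CPM table held 14781 genes, after 3 lines without values were left out. CPM were whole multiples of 1 read (100% within 0.1 read), which gave 14.6 to 31.7 M reads per library. 11 symbols look like dates and were kept as given.

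CPM were divided by median-ratio factors from 11000 genes above 0 in all libraries. log2(scaled CPM + 1) of the 10203 genes entered limma-trend (limma 3.58.1, R 4.3.3) over 10 wild-type libraries as 5 group means, with 5 residual degrees of freedom (10.02 with the prior). Mutant libraries stayed out, because genotype cannot be told apart from any batch difference and 3 mutant pairs were near-identical. Near-identical means a chi-square averaging under 10 across genes that had 20 reads or more. For the difference of responses all 20 libraries entered with those pairs averaged. The mutant difference alone was fitted to the mutant libraries with those pairs averaged, with 2 residual degrees of freedom (8.61 with the prior). All p-values are two-sided and Benjamini-Hochberg adjusted. On simulated data of 10203 genes the fit recovered 74% of 2-fold and 100% of 4-fold changes, with 12 false calls. There 100 genes were changed by each size, all with a mean of at least 5 scaled CPM. Counts were drawn from a negative binomial with the spread estimated from these libraries. In the data 19.0% of genes were called and lower genes were tested too, so these rates need not hold for the comparison itself.

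The members and gene lists were chosen with earlier results of these data known. Named genes are the 15 largest rises and falls with an adjusted p under 0.05, the higher group averaging at least 5 scaled CPM, no overlap and a non-clone symbol, up to 6 called members per list by adjusted p, the kit genes and the 3 most abundant markers per cell type; which of these to print was chosen after their values were seen. Alternatives were a pseudocount of 0.25, filters at 5 CPM and at none, unscaled CPM or quantile normalization, edgeR 4.0.16 on the recovered reads, a replicate block, all 20 or only the 4 libraries, and leaving out each library. Sequences and coordinates are not given, and 1 member is not reported here.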

Additional observations from a re-analysis of the deposited data

Results flagged for a closer look

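The 14 dpi difference itself differed between kita/kitb mutants and wild type in 2151 genes. Of the 116 genes named here that were tested, 76 were among them, 74 of which were called in wild type, and for 72 of the 74 the difference of the responses had the sign opposite to the wild-type difference. The response difference contains the wild-type libraries with a minus sign, so that count is not independent of the wild-type values. Most named genes were also chosen for large or strongly called wild-type differences, which favours the opposite sign. The count therefore supports nothing by itself. Values below are log2 differences of the responses, mutant minus wild type, each past an adjusted p of 0.05. In them genotype cannot be told apart from any batch difference between mutant and wild-type libraries. alox5ap, cd36, cldnc, grn2, lepb, lin7b and ncapg2 passed the 1 CPM limit only through the wild-type group where they are high, so their values are a description and support nothing. The counts above include these genes.

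Genes of replication and the cell cycle, which fell in wild type, had positive values. They were 3.76 for hells, 3.43 for mcm6, 3.33 for mcm2, 3.20 for tyms, 3.16 for mcm4 and 3.06 for wdhd1. They were 3.04 for znf367, 2.89 for tk1, 2.64 for mms22l, 2.55 for smc2 and 2.47 for mybl2b. For pole, cdkn1a, rrm2, ncapg2 and mki67 they were 2.45, 2.39, 2.37, 2.03 and 1.16. Among chaperone, muscle and stress genes that fell in wild type, values were 3.21 for ampd1, 2.78 for fosb, 2.53 for tnni1c, 2.16 for irf1b, 2.01 for hsp90aa1.1 and 1.86 for unc45b. They were 1.62 for trim63a, 1.49 for sesn3, 1.48 for hspb8, 1.45 for bag3, 1.45 for jdp2b, 1.37 for mef2ca and 1.31 for trim63b.

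Metabolic genes that fell in wild type were also positive, at 2.45 for ptgr1, 2.1 for cd36, 2.01 for fads2, 1.78 for gstp1, 1.52 for ucp3, 0.97 for ndufa4 and 0.67 for cpt2. Of the vascular, blood and matrix genes lower in wild type, tfr1a had 2.37, col9a2 2.15, stab1 1.41, tek 0.94 and vegfaa 0.91. The pump subunit gene atp1b1b, lower in wild type, had -2.95, so its difference was more negative in mutants.

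Immune genes that rose in wild type had negative values. Those of granulocytes were -6.71 for mmp9, -5.20 for lyz, -5.05 for mpx and -3.18 for alox5ap, of which lyz and mpx were not called in wild type. Those of macrophages and antigen presentation were -7.38 for grn1, -6.63 for grn2, -3.37 for mhc1uka, -1.76 for b2m, -1.76 for csf1a, -1.70 for cd74b and -1.50 for cd74a. Complement, lipid mediator and chemokine genes had -4.76 (c3a.1), -2.51 (ptgs2a), -1.99 (cxcl12a), -1.56 (cxcl12b), -1.52 (c6) and -0.88 (cfd). In mutants alone, 20 of 22 neutrophil and 15 of 30 macrophage markers were lower at 14 dpi than untouched (medians -2.14 and -0.67). Higher were 0 and 3 of them, beside 5.08% lower and 6.64% higher of all genes. Of 12 antigen presentation genes 5 were lower and 0 higher, and of 11 complement genes 3 and 4. The negative values of immune genes can thus include falls in mutants.

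Other genes that rose in wild type were negative as well. Signalling and regulatory genes had -3.74 (nppc), -3.69 (lepb), -2.96 (irs2a), -1.71 (nfil3-5), -1.43 (pdk2b) and -0.79 (fosl2). Membrane, epicardial and protein genes had -4.81 (steap4), -2.75 (cldnc), -2.74 (lin7b), -2.30 (tcap) and -1.89 (wt1b). For nell2a, rpl5b, dhrs3a, prrx1a and cdkn1bb the values were -1.86, -1.32, -1.25, -1.04 and -0.75. postnb was the exception among the rises named in this section, with 1.3, so its rise was larger in mutants. In the matrix lists as a whole positive values were not rare. Past the same limit, 14 of 42 matrix glycoproteins, 7 of 18 collagen chains and 9 of 38 matrix enzymes were positive, called in wild type or not. Negative were 1, 0 and 6 of them, beside 11.0% positive and 10.1% negative of all genes. These counts keep 2 matrix glycoproteins and 3 collagen chains that passed the filter only through 1 wild-type group and add no support. The counts were not followed through other scalings or with a library left out.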

How the results depend on the processing

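For 14 dpi minus untouched, counts outside the runs that left out a library stayed within 1.5 times of 1014 higher and 926 lower, from 807 and 735 (filter of CPM 5) to 1420 and 1270 (all 20 libraries), and edgeR called 1056 and 864, sharing 1849 calls with the limma fit. Leaving out 1 library gave 365 to 550 higher and 304 to 498 lower. For 14 dpi minus 7 dpi, counts moved from 388 and 465 to 222 and 1075 (CPM as deposited), 978 and 884 (all 20 libraries) and 600 higher (only the 4 libraries), and to 19 to 128 and 46 to 208 without 1 library. For the response difference they moved from 1124 and 1027 to 1870 and 1664 with the near-identical pairs kept, and to 665 lower with CPM as deposited; without 1 library they were 771 to 1139 and 724 to 1069. A replicate block gave 956 and 878, 368 and 422, and 940 and 879 for these 3 comparisons. Pairs with the same replicate number correlated between -0.19 and 0.16, so the numbers are shared as numbers only.

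Sign changed for vmhcl, which was not called (log2 0.17 with quantile normalization), for pecam1, also not called (-0.11 without 14 dpi replicate 2, 0.25 without replicate 1), and for the median of digestive and liver transcripts (-0.0053 without untouched replicate 2, 0.34 without replicate 1). Falling mitosis genes numbered 8 with a filter of CPM 5, which tests fewer of them, and falling genes of complexes II to V 23 with quantile normalization. Rising cytosolic ribosomal proteins numbered 6 (no filter), 25 (edgeR) and 45 (all 20 libraries). The cause of the other changes was not tested. Precision is limited by 2 libraries per group, and for the kit receptor genes by 26 reads or fewer per library.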

Other observations

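Some genes outside the rule for named genes were picked after their values were seen. lepb, a leptin gene that passed the 1 CPM limit only through the 14 dpi libraries and is given by its levels, had 65 and 107 reads at 14 dpi, against 1 and 0 in untouched hearts, or 4.48 and 5.33 against 0.0573 and 0 scaled CPM. It was at 7.41 and 9.56 at 2 dpi, 8.67 and 5.88 at 5 dpi and 13.7 and 15.5 at 7 dpi, so it was already above its untouched level by 2 dpi and past its highest values at 14 dpi. The troponin I gene tnni1d moved opposite to tnni1c. It had 69.4 and 26.1 scaled CPM at 14 dpi, against 15.5 and 12.1 in untouched hearts (log2 1.57 ± 0.48, adjusted p = 0.047), with 33.9 and 75.0 at 2 dpi, 19.5 and 41.3 at 5 dpi and 1.29 and 0.962 at 7 dpi, and its pairs differed widely among themselves. The call was lost without 14 dpi replicate 1 or either untouched library, while the step from 7 dpi was large (log2 4.36 ± 0.48, adjusted p = 0.0019). The Z-disc genes tcap, with 535 and 474 against 211 and 227 (log2 1.2 ± 0.23, adjusted p = 0.0072), and myoz2a, with 25.1 and 22.4 against 8.65 and 10.4 (log2 1.23 ± 0.23, adjusted p = 0.0067), lost their calls without 14 dpi replicate 1 and were higher than at 7 dpi as well (14 dpi minus 7 dpi, log2 1.81 and 1.53). klhl40a, which stabilises thin filament proteins in muscle, had 71.9 and 55.9 against 15.9 and 23.6 (log2 1.66 ± 0.27, adjusted p = 0.0029).

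Of 50 genes of sterol synthesis and lipid metabolism 11 fell and 3 rose (left-out falls 1, 2, 6 and 5). fads2, a fatty acid desaturase, had 1.45 and 2.39 scaled CPM at 14 dpi, against 8.71 and 8.02 in untouched hearts (log2 -1.70 ± 0.24, adjusted p = 0.0015). dhrs3a, a retinal reductase, rose, with 20.7 and 20.8 against 8.25 and 5.61 (log2 1.48 ± 0.18, adjusted p = 7.1e-04). Of 45 antioxidant and glutathione genes 8 fell and 4 rose (left-out falls 5, 2, 6 and 2, left-out rises 3, 1, 1 and 2). Among the falls was gstp1, a glutathione transferase, with 174 and 145 against 352 and 343 (log2 -1.12 ± 0.18, adjusted p = 0.0025). In both this and the sterol list the share of rises was below the 9.94% of all genes, and 9.08% of all genes fell.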
